A study of Mus musculus with 6 samples.

Results

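The Notch genes described here are 10 rows of a lung expression table of 23284 genes, chosen by symbol: the receptors Notch1, Notch2, Notch3 and Notch4, the ligands Dll4, Jag1 and Jag2, and the target genes Hey1, Heyl and Hes1. All 10 were present. Poly(A) RNA from whole lung was sequenced in 6 mice on the C57BL/6 background, all 6 weeks old, to find genes that differ between transgenic and normal animals. Of these, 3 mice carried a transgene for Fra-2, an AP-1 transcription factor encoded by Fosl2 (Fra-2tg), and 3 were littermates without it (WT). Each library came from a separate mouse. The labels do not name the promoter that drives the transgene.

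Notch receptors are single-pass membrane proteins that bind Delta-like and Jagged ligands on a neighbouring cell. Ligand binding leads to cleavage by an ADAM protease and then by gamma-secretase, and the freed intracellular domain enters the nucleus, binds RBPJ and turns on genes of the HES and HEY repressors. In lung vessels the pathway sets arterial identity and the coverage of vessels by mural cells, and in the airway epithelium it favours secretory over ciliated cells.

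RefSeq promoter windows of build GRCm38.p6, from 250 bases before to 50 bases after the annotated start, matched 7 of the 10 genes (not Hey1, Heyl or Hes1). The 3 of them whose genes differed between the genotypes by the test below are shown 5′ to 3′ on the strand of the gene: Notch4 (chr17:34564045-34564344, plus strand), Notch3 (chr17:32166841-32167140, minus strand) and Jag2 (chr12:112929446-112929745, minus strand). Capitals mark a match to the AP-1 motif TGANTCA, the sequence that Fra-2 and its partners are known to bind.
Notch4: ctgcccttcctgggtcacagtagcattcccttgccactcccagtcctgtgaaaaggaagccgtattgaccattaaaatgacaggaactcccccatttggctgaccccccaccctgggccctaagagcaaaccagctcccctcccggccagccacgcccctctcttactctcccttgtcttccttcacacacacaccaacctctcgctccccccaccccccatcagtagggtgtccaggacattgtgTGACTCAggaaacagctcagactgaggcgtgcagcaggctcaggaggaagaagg
Notch3: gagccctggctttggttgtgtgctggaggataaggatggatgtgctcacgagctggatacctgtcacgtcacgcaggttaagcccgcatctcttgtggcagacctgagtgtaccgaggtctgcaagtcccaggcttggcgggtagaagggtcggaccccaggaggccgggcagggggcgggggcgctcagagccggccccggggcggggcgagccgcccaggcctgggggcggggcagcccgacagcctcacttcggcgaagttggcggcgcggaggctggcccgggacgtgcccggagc
Jag2: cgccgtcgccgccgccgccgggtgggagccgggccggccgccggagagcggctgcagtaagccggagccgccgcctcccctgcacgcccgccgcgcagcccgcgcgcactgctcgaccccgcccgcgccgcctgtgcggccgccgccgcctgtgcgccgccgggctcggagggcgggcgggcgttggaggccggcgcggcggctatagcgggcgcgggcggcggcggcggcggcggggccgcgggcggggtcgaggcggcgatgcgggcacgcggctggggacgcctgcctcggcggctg

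The Notch4 match starts at base -4 from the RefSeq start and was the only AP-1 match in the 7 windows. Of all 32851 windows of the same length, 7.81% held one; the motif reads the same on both strands. The RBPJ core TGGGAA was searched on both strands and is in none of the 7 windows, against 25.6% of all windows. A match is a run of letters and no measure of binding. The Jag2 window is 86% G or C, the Notch3 window 70.0% and the Notch4 window 58.3%, beside a median of 52.7% over all windows.

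Values are FPKM, fragments scaled by transcript length and by the mapped fragments of the library, as computed by the authors. The depth of the libraries is unknown. The values of a library summed to 593094 to 646668 FPKM in Fra-2tg and 542233 to 664456 FPKM in WT. Fosl2 averaged 15.2 ± 2.58 FPKM in Fra-2tg and 12.1 ± 1.60 FPKM in WT (SD, n = 3 each; limma adjusted p = 0.158), and the labels do not say whether its row takes in reads of the transgene. Alveolar type 1 markers, which define lung tissue, were above 0 in every library and summed to 2651 to 3001 FPKM in Fra-2tg and 3232 to 3459 FPKM in WT. Of these 7 type 1 markers, 1 was higher, 4 lower and 2 not called by the test below, beside 13.6% higher and 13.0% lower among all tested genes. Of 7 alveolar type 2 markers, 5 were higher, 1 lower and 1 not called, beside the same shares. The 1 called lower was Sftpc, listed at 0 in the 3 Fra-2tg libraries and at 25400 to 33560 FPKM in WT, so its call rests on the listed zeros.

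Jag2 was higher and Notch3, Notch4 and Hey1 were lower in Fra-2tg lung. These 4 of 10 genes passed limma on log2(FPKM + 1) at an adjusted p under 0.05, the p being adjusted over 14855 tested genes. Among all tested genes 26.7% passed in either direction, 13.6% as higher and 13.0% as lower in Fra-2tg. The median log2 fold change was -0.31 over the 10 genes and 0.0026 over all tested genes. The 2 groups did not overlap for 7 of the 10, beside 45.7% of all tested genes; Jag1, Heyl and Hes1 overlapped. None of the 10 changed direction under the 17 alternative settings, and Jag2 and Hey1 were called in all 17.

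**Figure D1:**
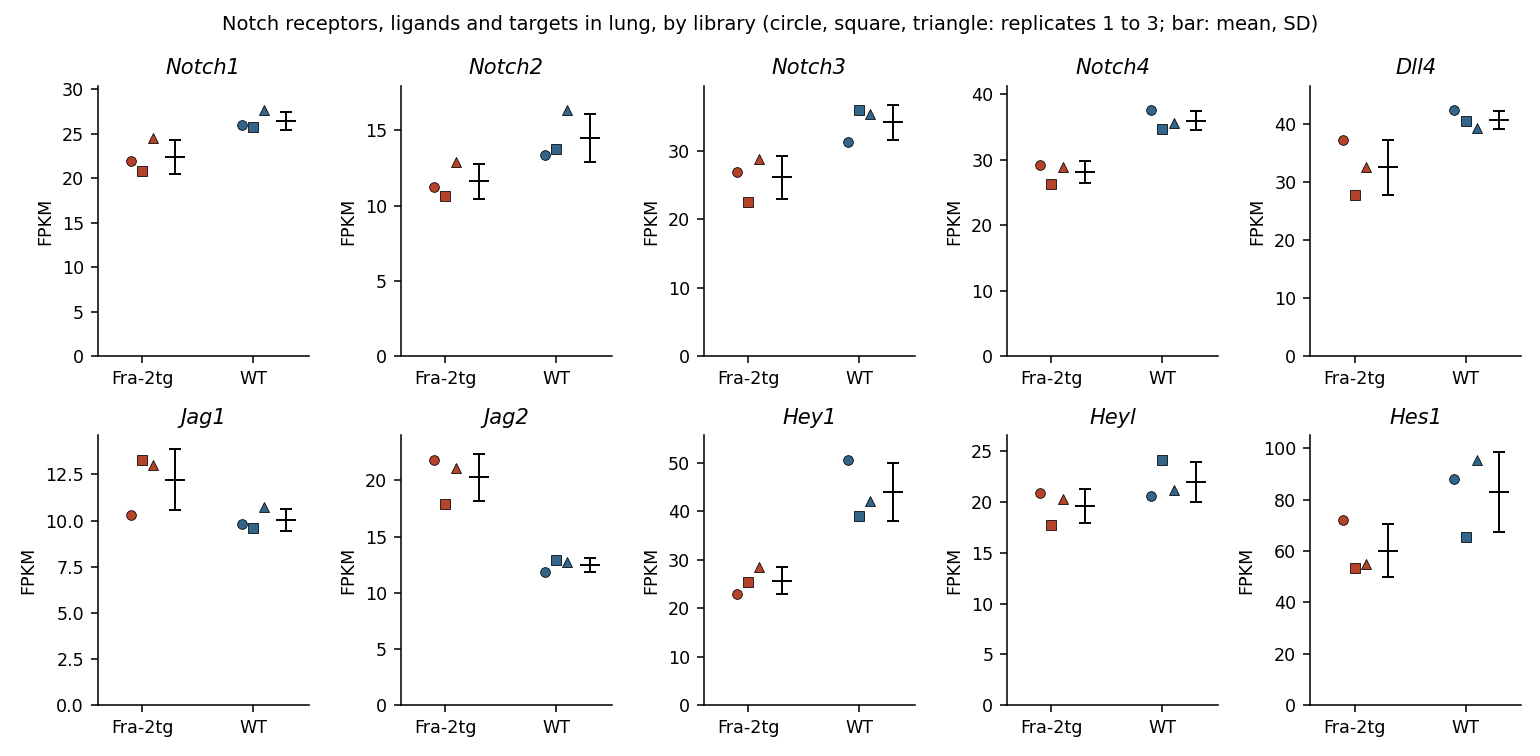
FPKM of each of the 10 Notch genes in 3 Fra-2tg and 3 WT lungs, each panel on its own scale from 0; symbols are replicates and bars are mean and SD. All 3 Fra-2tg values of Jag2 lie above WT, at 17.9 to 21.8 FPKM, and all 3 of Hey1 lie below, at 23.1 to 28.6 FPKM.

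Gene positions are those of GRCm38. The receptor genes lay lower in Fra-2tg, and the groups overlapped for none of the 4. Among all tested genes 45.7% were apart in either direction. Of the receptors, only Notch3 and Notch4 passed the test. Notch4 (chr17:34564268-34588503, plus strand), the receptor found mostly on endothelium, had 29.2, 26.2 and 28.8 FPKM in Fra-2tg and 37.5, 34.7 and 35.6 FPKM in WT. The lowest WT library was thus above every Fra-2tg library. Its means were 28.1 ± 1.64 FPKM in Fra-2tg and 35.9 ± 1.44 FPKM in WT (SD, n = 3 each). The log2 fold change was -0.34 ± 0.06 (SE; limma adjusted p = 0.00982). Notch4 remained called in 16 of the 17 alternatives; with libraries rescaled to equal FPKM sums the adjusted p was 0.0979.

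Notch3 (chr17:32120820-32166852, minus strand), the receptor of pericytes and vascular smooth muscle, had 26.9, 22.6 and 28.8 FPKM in Fra-2tg and 31.2, 35.9 and 35.4 FPKM in WT. Fra-2tg replicate 2 was the lowest library and WT replicate 1 the lowest of its group. The log2 fold change was -0.38 ± 0.10 (SE; limma adjusted p = 0.0350). This call did not hold without Fra-2tg replicate 1 or 2 or without WT replicate 2 or 3, with adjusted p = 0.0776, 0.0606, 0.0925 and 0.112 in that order.

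Notch1 (chr2:26457903-26516663, minus strand), a broadly expressed receptor needed in endothelium and in T cell development, had 21.9, 20.8 and 24.5 FPKM in Fra-2tg and 26.0, 25.8 and 27.6 FPKM in WT. Notch2 (chr3:98013527-98150361, plus strand), which marginal zone B cells need and which many lung cell types express, had 11.3, 10.6 and 12.9 FPKM in Fra-2tg and 13.3, 13.8 and 16.3 FPKM in WT. Every Fra-2tg value of both genes was below every WT value, yet neither passed the test. The log2 fold change of Notch1 was -0.23 (95% interval -0.41 to -0.06; limma adjusted p = 0.0564). That of Notch2 was -0.30 (95% interval -0.54 to -0.05; limma adjusted p = 0.0728). Without Fra-2tg replicate 3, Notch1 was called (limma adjusted p = 0.0279). Leaving out any other library gave no call for Notch1 (adjusted p up to 0.167). Over the 17 alternatives Notch1 was called in 4 and Notch2 in 2.

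Summed over the 4 receptors, FPKM were 89.2, 80.2 and 95.1 in Fra-2tg and 108, 110.1 and 114.9 in WT, 0.794 times the WT mean. The shares of Notch2, Notch3 and Notch4 in that sum overlapped between the groups. Notch4 held 31.9% ± 1.38 of the sum in Fra-2tg and 32.4% ± 2.03 in WT, and Notch3 held 29.5% ± 1.196 in Fra-2tg and 30.7% ± 1.84 in WT (SD, n = 3 each). Notch1 held 25.4% ± 0.757 in Fra-2tg and 23.8% ± 0.348 in WT; its shares did not overlap, with an exact permutation p = 0.1, the smallest that 3 against 3 libraries allow (adjusted p = 0.4 over the 4 shares, two-sided). Annotated transcripts on the opposite strand overlap exons of Notch1 and Notch3, and neither labels nor notes say whether counting used the strand.

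The ligands did not move together. Jag2 (chr12:112907819-112929776, minus strand), a Jagged ligand that acts with Jag1 in the airway epithelium, had 21.8, 17.9 and 21.1 FPKM in Fra-2tg and 11.8, 12.9 and 12.7 FPKM in WT. The lowest Fra-2tg library stood well above the highest WT library. Mean Jag2 was 20.3 ± 2.11 FPKM in Fra-2tg and 12.5 ± 0.592 FPKM in WT (SD, n = 3 each). Their ratio was 1.62 and the log2 fold change 0.65 ± 0.09 (SE; limma adjusted p = 0.00333). Across the 17 alternatives its log2 fold change ran between 0.51 and 0.74.

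Jag1 (chr2:137081456-137116644, minus strand), the Jagged ligand of endothelium, smooth muscle and airway cells, had 10.3, 13.3 and 13.0 FPKM in Fra-2tg and 9.82, 9.58 and 10.7 FPKM in WT. Fra-2tg replicate 1 lay inside the WT range and the other two lay above it. The log2 fold change was 0.25 (95% interval 0.01 to 0.50; limma adjusted p = 0.117). Leaving out Fra-2tg replicate 1 gave 0.36 and a call (adjusted p = 0.0316), so that 2 of the 10 genes were then higher in place of 1. Jag1 was not called in any other of the 17 alternatives.

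Dll4 (chr2:119325784-119335962, plus strand), the Delta-like ligand of arterial and sprouting endothelium, had 37.2, 27.8 and 32.5 FPKM in Fra-2tg and 42.3, 40.4 and 39.2 FPKM in WT. The groups did not overlap, and the Fra-2tg values were spread over a wider range than those of WT. Its log2 fold change was -0.32 (95% interval -0.57 to -0.07, limma adjusted p = 0.0623). Leaving out Fra-2tg replicate 1 gave -0.42 and a call (adjusted p = 0.0281). Leaving out any other library gave none, and Dll4 was called in 3 of the 17 alternatives. The lncRNA gene Gm14207 overlaps Dll4 exons on the opposite strand and is a row of its own, at 2.29 to 3.05 FPKM in Fra-2tg and 3.28 to 4.51 FPKM in WT (log2 fold change -0.45, limma adjusted p = 0.0407).

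The summed FPKM of the 3 ligands were 69.4, 58.9 and 66.6 in Fra-2tg and 63.9, 63.0 and 62.6 in WT, so the group ranges overlapped. The ligand Dll1, not among the 10 genes, is left out of this sum and its shares. Dll1 averaged 30.8 FPKM in Fra-2tg and 11.3 FPKM in WT, so the sum and the shares depend on which ligands are listed. Within the sum of the 3 ligands, Dll4 held 49.8% ± 3.39 in Fra-2tg and 64.3% ± 1.79 in WT (SD, n = 3 each). Jag2 held 31.2% ± 0.725 in Fra-2tg and 19.8% ± 1.123 in WT. Jag1 held 19.01% ± 3.87 in Fra-2tg and 15.9% ± 1.07 in WT. The Dll4 and Jag2 shares each separated the groups (exact permutation p = 0.1, the smallest possible, two-sided; adjusted p = 0.15 over the 3 shares), and the Jag1 shares overlapped (exact permutation p = 0.4). The ratio of Jag2 to Dll4, chosen after its values were seen, was 0.587, 0.644 and 0.649 in Fra-2tg and 0.280, 0.320 and 0.325 in WT. Its exact permutation p was 0.1, the smallest possible (two-sided, not adjusted). Since the ratio was picked from these same values, that p adds no support. The ratio of Jag2 to Jag1 gave an exact permutation p of 0.2.

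**Figure D2:**
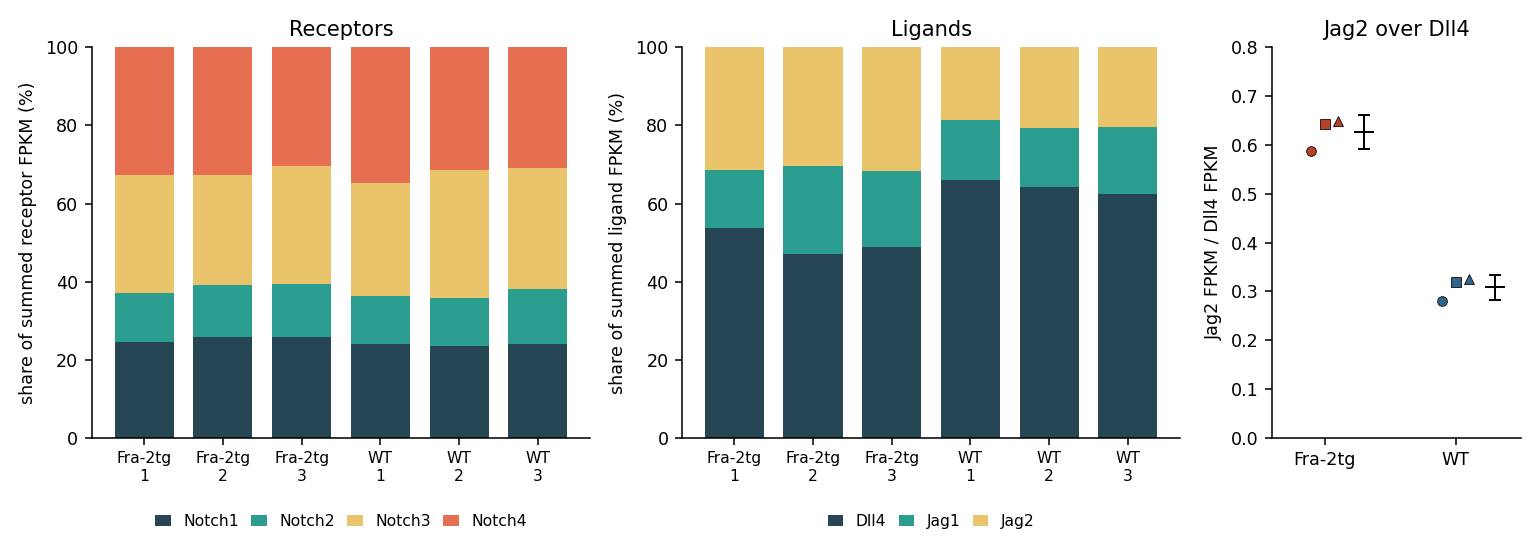
Share of each gene in the summed FPKM of the 4 receptors (left) and of the 3 ligands (middle) by library, and Jag2 FPKM over Dll4 FPKM (right; bars are mean and SD, n = 3 each). Dll4 holds 47.1% to 53.6% of the ligand sum in Fra-2tg and 62.6% to 66.1% in WT, and the Jag2 share is 30.3% to 31.7% in Fra-2tg and 18.5% to 20.6% in WT.

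Among the targets, Hey1 differed most of the 10 genes. Hey1 (chr3:8663359-8667256, minus strand), a repressor that Notch induces in endothelium, had 23.1, 25.5 and 28.6 FPKM in Fra-2tg and 50.7, 39.1 and 42.1 FPKM in WT. The highest Fra-2tg library was below the lowest WT library. Its means were 25.7 ± 2.79 FPKM in Fra-2tg and 44.0 ± 6.01 FPKM in WT (SD, n = 3 each). Their ratio was 0.585 and the log2 fold change -0.75 ± 0.12 (SE; limma adjusted p = 0.00561). Over the alternatives the log2 fold change lay between -0.90 and -0.64.

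Hes1 (chr16:30064384-30067796, plus strand), a repressor that Notch and other pathways induce in many cell types, had 72.2, 53.6 and 54.8 FPKM in Fra-2tg and 87.8, 65.6 and 95.5 FPKM in WT. Fra-2tg replicate 1 was above WT replicate 2, so the groups overlapped. The log2 fold change was -0.45 (95% interval -0.86 to -0.05, limma adjusted p = 0.0937). Without WT replicate 2 it was -0.61 and called (adjusted p = 0.0312). Leaving out any other library gave no call, and Hes1 was called in 2 of the 17 alternatives. Heyl (chr4:123233556-123249875, plus strand), a HEY repressor of pericytes and smooth muscle, had 20.9, 17.7 and 20.2 FPKM in Fra-2tg and 20.5, 24.1 and 21.1 FPKM in WT. Its values overlapped, with a log2 fold change of -0.15 (95% interval -0.37 to 0.06; limma adjusted p = 0.237). The interval of Heyl does not reach the interval of Hey1, which runs from -1.02 to -0.47. The ratio of Hey1 to Heyl, not among the planned tests, was 1.32 ± 0.186 in Fra-2tg and 2.03 ± 0.426 in WT (SD, n = 3 each). Its exact permutation p was 0.1, the smallest possible (two-sided, not adjusted). The ratio of Hey1 to Notch4, also unplanned, gave the same p.

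FPKM are per length, so levels can be set in order across genes. In Fra-2tg the order of mean FPKM was Hes1, Dll4, Notch4, Notch3, Hey1, Notch1, Jag2, Heyl, Jag1 and Notch2, from 60.2 down to 11.6 FPKM. In WT it was Hes1, Hey1, Dll4, Notch4, Notch3, Notch1, Heyl, Notch2, Jag2 and Jag1, from 83.0 down to 10.1 FPKM. Hes1 was the highest in all 6 libraries. Of the 9 neighbouring pairs in Fra-2tg, the ranges over libraries were apart only between Hes1 and Dll4 and between Heyl and Jag1. In WT they were apart for all neighbours except Hey1 with Dll4 and Notch4 with Notch3. Hey1 thus stood at position 5 in Fra-2tg and 2 in WT, and Jag2 at position 7 in Fra-2tg and 9 in WT.

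Markers of the vessel cells that carry this pathway also differed. In bulk tissue, fewer cells of a type and less RNA per cell cannot be told apart. Of 12 endothelial markers, 1 was higher, 5 lower and 6 not called, with 9 of the 12 groups apart, beside 13.6% higher, 13.0% lower and 45.7% apart among all tested genes. The same shares over all genes stand beside the counts of every marker list below. The endothelial markers summed to 1743 to 1854 FPKM in Fra-2tg and 2105 to 2244 FPKM in WT. The tight junction gene Cldn5 averaged 435 FPKM in Fra-2tg and 524.5 FPKM in WT, and the adhesion gene Pecam1 298 FPKM in Fra-2tg and 297 FPKM in WT, neither called. The endothelial cadherin Cdh5 fell, with means of 250.4 FPKM in Fra-2tg and 338 FPKM in WT (limma adjusted p = 0.0111).

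Marker lists of endothelial subtypes differed from each other. Of 8 lung capillary markers, 1 was higher and 6 lower, with sums of 558 to 629 FPKM in Fra-2tg and 902 to 1039 FPKM in WT. Of 8 arterial markers, 4 were higher and 1 lower. Their sums, 5363 to 5875 FPKM in Fra-2tg and 2945 to 4211 FPKM in WT, were mostly Mgp, a calcification inhibitor that other cells also make. The gap junction gene Gja4 and the transcription factor Sox17, next in abundance, were not called (limma adjusted p = 0.957 and 0.362). Higher beside Mgp were Vegfc, Unc5b and Dkk2, the last at only 0.365 FPKM in WT, and Bmx was lower. Gja5 lay below WT in all Fra-2tg libraries without a call (limma adjusted p = 0.0840). The arterial list thus had no single direction.

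Mural cell markers were split too. Of 7 pericyte markers, 3 were higher and none lower, with sums of 287 to 356 FPKM in Fra-2tg and 269 to 297.5 FPKM in WT. Cox4i2 and the PDGF receptor Pdgfrb, the most abundant of them, were not called (limma adjusted p = 0.408 and 0.0663), and Higd1b rose (0.0199). Of 8 smooth muscle markers, none was higher and 5 were lower, with sums of 374 to 470.4 FPKM in Fra-2tg and 538 to 591 FPKM in WT. Acta2 and Des fell to 0.756 and 0.639 times their WT means (limma adjusted p = 0.0415 and 0.00155), and Tagln was not called (0.0765). No marker of these 5 lists was at 0 in any library.

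**Figure D3:**
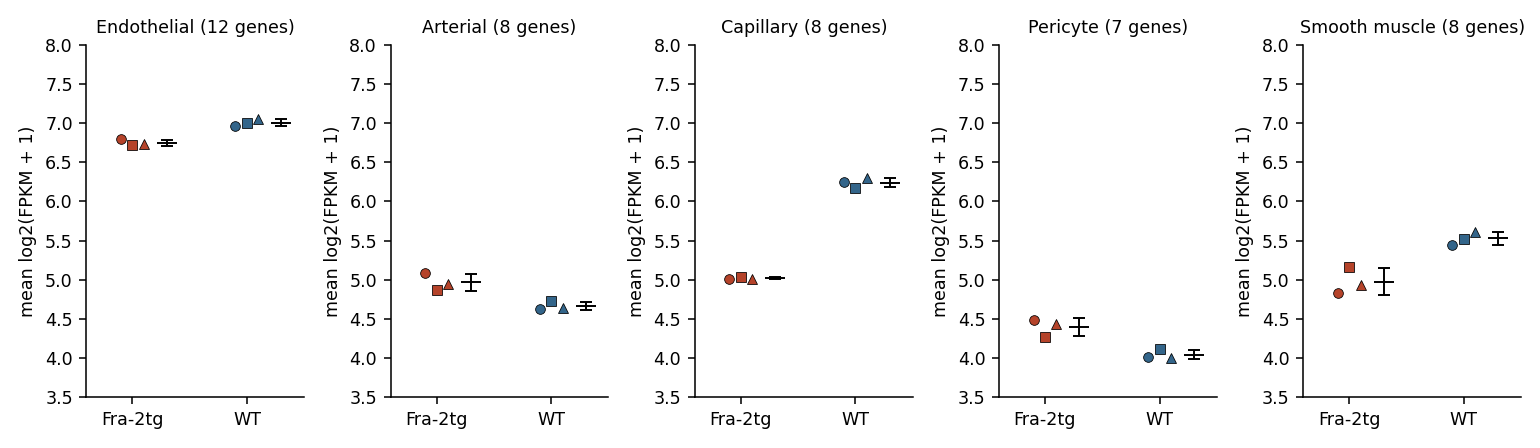
Mean log2(FPKM + 1) of 5 vessel marker lists in each library, for Fra-2tg and WT, with mean and SD (n = 3 each). The list means are lower in Fra-2tg for endothelial, capillary and smooth muscle markers, by 0.26, 1.22 and 0.55, and higher for arterial and pericyte markers, by 0.30 and 0.36.

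Set against the endothelial markers of the same library, the 4 receptors and Dll4 had overlapping groups. The 12 markers themselves did not move together. Emcn was the 1 called higher (log2 fold change 1.34), and of the 5 called lower Ptprb and Eng fell most (-1.06 and -1.05). Pecam1 was near 0 (0.0063). The relative levels thus depend on which markers are averaged, and single markers were not tried as the base. The level of each gene minus the mean log2(FPKM + 1) of the 12 endothelial markers differed between Fra-2tg and WT by 0.02 for Notch1, -0.04 for Notch2, -0.12 for Notch3, -0.09 for Notch4 and -0.06 for Dll4. The relative level of Hey1 was -2.01 ± 0.18 in Fra-2tg and -1.52 ± 0.22 in WT (SD, n = 3 each). That of Jag2 was -2.34 ± 0.12 in Fra-2tg and -3.25 ± 0.05 in WT, and that of Jag1 -3.03 ± 0.23 in Fra-2tg and -3.54 ± 0.05 in WT. The FPKM groups of Jag1 overlapped. On this relative scale the groups of all 3 genes were apart, each with an exact permutation p = 0.1, the smallest possible (two-sided, adjusted p = 0.214 over 30 such differences). The endothelial base itself was lower in Fra-2tg by 0.26, which raises every gene set against it. The share of all tested genes apart on this scale was not computed.

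The reading depends on which cells are taken as the base. Relative to pericyte markers, 8 of the 10 genes lay lower in all Fra-2tg libraries than in any WT library, Notch3 by 0.74 and Heyl by 0.51. The pericyte base itself was higher in Fra-2tg by 0.36, which lowers every gene set against it. Of its 7 genes Rgs5 rose most (log2 fold change 1.92). The share of all tested genes lying lower on this scale was not computed. Relative to smooth muscle markers, Notch3 lay 0.17 and Heyl 0.40 higher in Fra-2tg, with overlapping groups (exact permutation p = 0.4 and 0.2). Hey1 lay 0.20 lower on that scale, also with overlapping groups (exact permutation p = 0.4). The smooth muscle base was lower in Fra-2tg by 0.55, which raises every gene set against it. Jag2 was the sole gene of the 10 that lay above WT in all Fra-2tg libraries against each of the 3 marker lists. It was also the sole one of the 10 to do so in FPKM, so this largely restates that rise. The share of all tested genes lying above WT against all 3 lists was not computed. The part that cell numbers have in the differences was not tested.

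**Figure D4:**
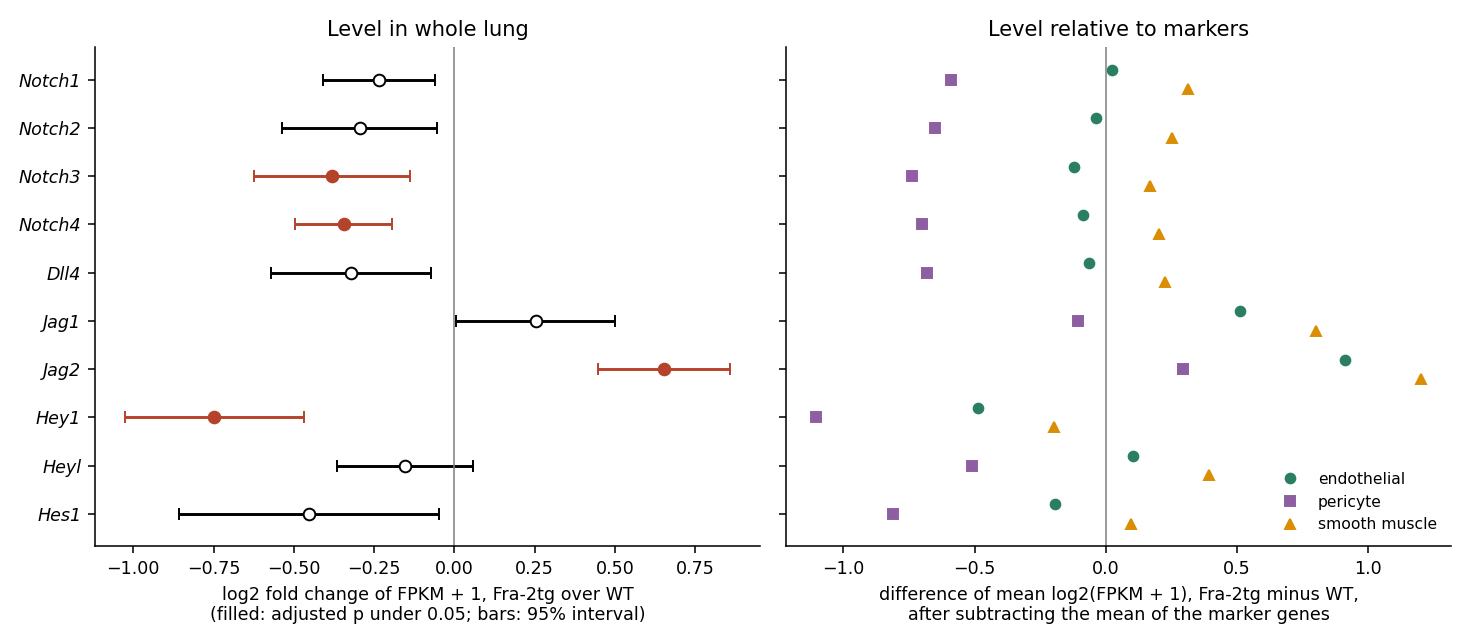
Left, log2 fold change (Fra-2tg over WT) of each Notch gene with its 95% interval, filled where the limma adjusted p was under 0.05. Right, the difference between Fra-2tg and WT in the level relative to endothelial, pericyte or smooth muscle markers. Jag2 is above 0 and Hey1 below 0 for all 3, while Notch1 is 0.02 for endothelial markers. For smooth muscle markers Hey1 is -0.20 and its groups overlap.

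In the airway, where Notch favours secretory cells, none of 8 ciliated cell markers was called in either direction, although limma gave Tekt1 and Rsph1 an unadjusted p of 0.0156 and 0.0454, and all 8 had overlapping groups. The ciliated markers Ccdc153, Foxj1 and Rsph1 had means of 38.6, 29.5 and 14.1 FPKM in Fra-2tg and 50.6, 38.1 and 20.3 FPKM in WT. Of 6 goblet cell markers, 4 were higher and none lower, with sums of 450.4 to 593 FPKM in Fra-2tg and 18.8 to 105 FPKM in WT. The goblet gene Clca3 made up most of that sum (483 FPKM in Fra-2tg and 47.2 FPKM in WT on average), and the mucin Muc5b was not called (limma adjusted p = 0.0903). Agr2, a disulfide isomerase that mucin production needs, rose, with means of 20.7 FPKM in Fra-2tg and 5.61 FPKM in WT (limma adjusted p = 0.0295). Of 6 markers of club cells, which are also secretory, none was higher and 2 were lower. Those 2, Scgb3a2 and Cyp2f2, fell to 0.424 and 0.542 times their WT means (limma adjusted p = 0.00463 and 0.0136). The secretory lists thus had no single direction. Of 5 basal cell markers, Krt14 and Krt15 were tested and higher; Trp63, Krt5 and Ngfr were under the filter. Whether these cells bear on the Jag2 values was not tested.

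Other genes of the pathway were taken from 8 lists with 68 genes, of which 61 had a mean of at least 0.5 FPKM and were tested. In Fra-2tg 5 were higher and 9 lower, beside 13.6% and 13.0% of all tested genes, with a median log2 fold change of -0.03. Without Fra-2tg replicate 2, 8 were higher. The groups were apart for 27 of the 61, a share near the 45.7% of all tested genes.

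The ligand list held the largest rises. Dll1, a Delta-like ligand, had 29.6, 33.7 and 29.1 FPKM in Fra-2tg and 9.96, 14.8 and 9.08 FPKM in WT, a ratio of means of 2.73 (log2 fold change 1.40 ± 0.17, SE; limma adjusted p = 0.0026). WT replicate 2 was the highest WT library and still far below the Fra-2tg group. At these levels Dll1 exceeded Jag2 and Jag1 in every Fra-2tg library, whereas in WT it lay below Jag2 in replicates 1 and 3 and above it in replicate 2. Mfap5, a microfibril protein that can bind Jagged ligands, averaged 171 FPKM in Fra-2tg and 59.5 FPKM in WT (log2 fold change 1.53, limma adjusted p = 0.00215). Egfl7, a secreted endothelial protein that antagonises Notch, was lower, at 362 FPKM in Fra-2tg and 463 FPKM in WT (log2 fold change -0.36, limma adjusted p = 0.0153), a call lost with equal library sums (0.0963) and without WT replicate 3 (0.0513). Mfap2, a microfibril protein and the most abundant uncalled gene of this list, averaged 101.5 FPKM in Fra-2tg and 113 FPKM in WT (log2 fold change -0.17, limma adjusted p = 0.362). Dll3, Dlk1, Dlk2 and Dner were under 0.5 FPKM in every library.

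Of 10 genes for proteases that cut the receptor, 2 were higher and none lower, beside 13.6% and 13.0% of all tested genes. Adam10, the protease that cuts ligand-bound Notch, had 30.6, 28.9 and 36.5 FPKM in Fra-2tg and 18.9, 20.8 and 20.1 FPKM in WT (log2 fold change 0.65, limma adjusted p = 0.00433). Furin, which cuts the receptor during its maturation, averaged 67.5 FPKM in Fra-2tg and 43.5 FPKM in WT (log2 fold change 0.63, limma adjusted p = 0.00335). The other 8 genes of this list, Adam17 and the gamma-secretase subunits, were not called. Psenen was the most abundant of those, at 158 FPKM in Fra-2tg and 139 FPKM in WT.

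Rbpj, the DNA-binding partner of cleaved Notch, had 25.9, 23.2 and 27.9 FPKM in Fra-2tg and 17.1, 18.7 and 18.1 FPKM in WT (log2 fold change 0.49, limma adjusted p = 0.0064). It was the only called gene of 7 in its list; Snw1, a transcriptional coactivator, stood at 29.0 FPKM in Fra-2tg and 29.6 FPKM in WT. Of 12 corepressors, the Groucho family genes Tle1 and Tle4 fell to 0.661 and 0.697 times their WT means (limma adjusted p = 0.00274 and 0.00671), and Ctbp1, the most abundant of the others, was not called (0.355).

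Most genes that handle the receptor or its ligand were not called. Those called were lower, as were 13.0% of all tested genes. Numb, an endocytic adaptor that antagonises Notch, had 31.5, 28.8 and 33.3 FPKM in Fra-2tg and 50.95, 51.3 and 59.7 FPKM in WT (log2 fold change -0.77, limma adjusted p = 0.00215). It was the only called gene of 11 in its list, where Nedd4 was the most abundant of the others. Eogt, a glycosyltransferase of the Notch ectodomain (listed under its older symbol A130022J15Rik), fell to 0.604 times its WT mean (limma adjusted p = 0.00174). The fringe enzyme Mfng was not called (0.127). Of 6 genes of ligand endocytosis, the ubiquitin ligase Mib2 and the epsin Epn2 fell to 0.755 and 0.756 times WT (limma adjusted p = 0.0151 and 0.00529), and Epn1 was not called (0.996). The Mib2 call did not hold with equal library sums (0.0955) or without WT replicate 3 (0.0597).

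Of other targets, Hes2, a HES family repressor, had 0.219, 0.131 and 0.128 FPKM in Fra-2tg and 2.41, 2.11 and 3.94 FPKM in WT. Every Fra-2tg library was thus far below WT, with a log2 fold change of -1.69 (limma adjusted p = 0.00192) on a scale that understates changes of low genes. Efnb2, an ephrin ligand of arterial endothelium that Notch induces, averaged 39.8 FPKM in Fra-2tg and 54.4 FPKM in WT (log2 fold change -0.44, limma adjusted p = 0.0133). Nrarp, a target that limits Notch signalling, was at 34.4, 34.3 and 33.4 FPKM in Fra-2tg and 32.1, 32.0 and 29.5 FPKM in WT, with groups apart and no call (log2 fold change 0.12, limma adjusted p = 0.145). Hey2 and Hes6 were not called either, and Hes3, Hes5 and Hes7 were too low to test.

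**Figure D5:**
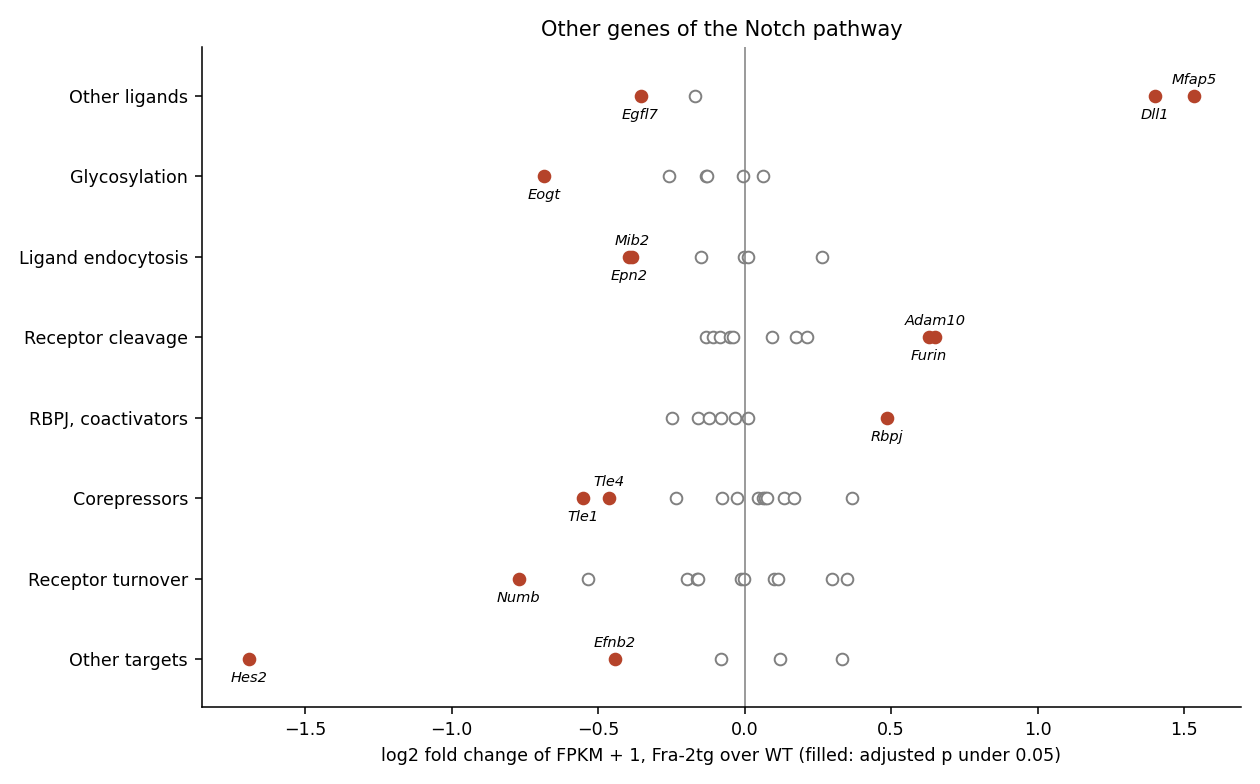
Log2 fold change (Fra-2tg over WT) of the 61 tested other pathway genes in 8 lists; filled points are called and named. Dll1 and Mfap5 lie farthest to the right, at 1.40 and 1.53, and Hes2 farthest to the left, at -1.69.

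Macrophage markers moved with the same groups. Over all tested genes 13.6% were higher and 13.0% lower. Of 8 macrophage markers, 6 were higher and none lower, with sums of 374 to 453 FPKM in Fra-2tg and 146 to 203 FPKM in WT. Of 6 B cell markers, none was higher and 5 were lower, with sums of 34.2 to 50.2 FPKM in Fra-2tg and 128 to 271 FPKM in WT. Among the other lists, 2 of 6 venous markers were higher and 3 lower, 2 of 8 fibroblast markers higher and 6 lower, and 1 of 6 T cell markers higher and 1 lower. Of 4 tested lymphatic markers 1 was lower. None of 3 tested neuroendocrine markers was called. The part of these cells in the values of Adam10, Furin, Rbpj and Notch2 was not tested.

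With library sums equalised after leaving out Sftpc and Scgb1a1, whose rows hold zeros in some libraries beside very high values in others, the median log2 fold change of all genes moved to -0.13. On that scale 1148 genes were higher and 3438 lower, against 2027 and 1936 on the scale used here. The Notch genes called lower were then 7 in place of 3, with Notch1, Notch2, Dll4 and Hes1 added, and 1 was still higher. The log2 fold changes there were -0.90 for Hey1, -0.53 for Notch3, -0.49 for Notch4 and 0.51 for Jag2, each to be read against that shift of the median. Rbpj lay at the threshold (limma adjusted p = 0.0501).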

How the data were processed

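Poly(A) RNA of 6 lungs was sequenced with a stranded kit, per the labels' protocols. FPKM values were computed by the authors and deposited as 1 table. The submitters' processing notes name Cufflinks 2.2.1, TopHat2 2.0.10, Bowtie 1.0.0, SAMtools 0.1.19, FastQC and the build GRCm38 (mm10), with no settings. Columns were matched to samples by name. From the deposited table, log2(FPKM + 1) was tested with limma 3.58.1 in R 4.3.3 (two-sided, variance trend, no covariate) for the 14855 genes averaging 0.5 FPKM or more, with Benjamini-Hochberg adjustment and calls at 0.05. Intervals are at 95%. Shares, relative levels, summed FPKM and ratios between genes were tested by exact permutation over libraries (scipy 1.17.1). The fit was tested on simulated data. Coordinates and overlaps come from GENCODE M21 (GRCm38) and promoters from RefSeq.

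The members and gene lists were chosen with earlier results of these data known. Named are the 10 members, every called gene and the most abundant uncalled gene of each other pathway list, the 3 most abundant genes of 6 marker lists, and Fosl2. Gm14207, Adam17, Hey2, Hes6, Tekt1, the basal cell markers and the untested genes were added after their values were seen. So were the markers Rgs5, Emcn, Eng, Ptprb, Vegfc, Unc5b, Dkk2, Bmx, Gja5, Scgb3a2 and Cyp2f2. All listed genes matched a row, 4 of them by an older symbol. Alternatives were a filter at 5 FPKM or none, pseudocounts of 0.1 or 0.01 FPKM, 3 scalings, a replicate block, limma without its trend, with library weights or robust moderation, and each library left out.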

Additional observations from a re-analysis of the deposited data

How the results depend on the processing

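The 10 Notch genes kept their direction in all 17 alternatives; 12 of their values gained a call and 6 lost one. Their number called lower was 3, and 7 with library sums equalised without Sftpc and Scgb1a1; with 1 library left out it ran from 2 to 4, and their number called higher, 1, ran from 1 to 2. Of the other pathway genes 9 were called lower, 18 under that scaling, and 5 higher, 5 to 8 with 1 library left out. Over all genes 3963 were called, but 2301 with equal library sums, 2510 without Fra-2tg replicate 1 and 2229 without WT replicate 3. Uncalled genes near 0 changed sign: Epn1 was 0.000396 with median-ratio scaling, 0.0032 with library weights and -0.060 to 0.057 with 1 library left out, and Snw1 was -0.074 to 0.0021 with 1 library left out. With sums equalised without Sftpc and Scgb1a1, Ctbp1 was -0.083, Nedd4 -0.052 and Nrarp -0.027. Relative to pericyte markers, Heyl differed by -0.51, and by -0.57 and -0.58 with pseudocounts of 0.1 and 0.01 FPKM. Deviations of same-numbered libraries from their group means correlated at -0.054, 0.014 and 0.163, so the numbers were not taken as pairs. With the replicate block 4 Notch genes were called lower: Notch1 and Notch2 gained a call (limma adjusted p = 0.0441 and 0.0302) and Notch3 lost it (0.0607), and 3541 genes were called in all. The cause of these changes was not tested. The fragments behind each value are unknown, so no counting error is given.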
